A study of Homo sapiens with 29 samples.

Results

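Cytosolic ribosomal protein genes encode the proteins of the 2 ribosomal subunits outside mitochondria, and they were followed here in BEAS-2B cells given a DNA-damaging food carcinogen. Members were the genes whose symbol on the array is RPL or RPS, an optional P, a number and an optional final A or X. That gave 52 genes on 111 probe sets, of 54675 probe sets in all, and each gene was represented by its probe set of highest mean level. Of the 52 genes, 51 passed the minimum level and were tested, on 100 probe sets. RPL36A did not pass, with a mean intensity of 20.2 on 243201_at against a minimum of 37.4. A low signal of this probe set does not show that the mRNA was absent. Of the 76 RefSeq genes with such names, 15 more were matched only to probe sets that list several symbols, among them RPL5, RPL23 and RPL13A, and 9 are not analysed here, among them RPLP0 and RPS27A.

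BEAS-2B is an established human bronchial epithelial cell line. Cultures received N-OH-PhIP, the N-hydroxylated metabolite of a heterocyclic amine formed in cooked meat and tobacco smoke, for 24 h at 0.1, 0.5, 1, 5, 10, 50, 100, 500 or 1000 nM, or the DMSO vehicle alone. All 10 groups, controls included, carried DMSO at 1%, and each had 3 arrays from separate cultures except 0.5 nM, which had 2. The question set by the submitters was the dose below which no transcriptional effect can be seen, and for the ribosomal protein genes it becomes whether and where their mRNA signal left the DMSO level.

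A ribosome needs 1 copy of nearly every ribosomal protein, so cells make these proteins in matched amounts, and their mRNAs are among the most abundant in growing cells. Most of these mRNAs begin with a C followed by an unbroken run of C and T (U in the RNA), the 5′ terminal oligopyrimidine or TOP motif, through which the kinase mTOR and the protein LARP1 control their translation. Some ribosomal proteins act outside the ribosome when its assembly is disturbed. RPL11 and RPL5, in a particle with 5S RNA, bind MDM2 and thereby stabilise p53.

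The start sites of members the results turn on are shown first, because the motif shared by the family sits there. Each line holds the 20 bases before and the 10 bases from the annotated start of the gene, on the gene's strand, from RefSeq on GRCh38.p14. Capitals mark an unbroken run of C and T that opens with a C at the start and holds at least 4 further bases, as far as it lies in the window. RPS9 (chr19:54200838-54200867, plus strand), RPS21 (chr20:62387083-62387112, plus), RPL36 (chr19:5690275-5690304, plus) and RPS15 (chr19:1438376-1438405, plus) are members that rose at 1000 nM. RPL10A (chr6:35468381-35468410, plus), RPL3 (chr22:39319614-39319643, minus) and RPS16 (chr19:39435940-39435969, minus) fell at 500 nM. RPS19 (chr19:41860235-41860264, plus, the first of 2 entries) and RPS29 (chr14:49598701-49598730, minus) have probe sets that disagreed.
RPS9: cagccgtggcgcttccgcgcCTCTTTCTCa
RPS21: tgccgggtgactagctgcttCCTTTCTCTC
RPL36: gagttccgcgcggcgccagcCCTTCCgcca
RPS15: ataactgcgcaggcgcggaccaaagcgatc
RPL10A: gcgcatgcgcaagacatgctagtctctttt
RPL3: gacccgtaaggccgaccggcctctaccggc
RPS16: ccagggtggcccctagctttCCTTTTCCgg
RPS19: gcccgggaaaccccgtcgttCCCTTTCCCC
RPS29: ttttcccccgagcgcgcagctggcagcggt

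Of the 46 members with a promoter entry, 34 had such a start, or 73.9%, against 1404 of 27305 genes in the table, or 5.14%. The search used only the gene's strand at the annotated start, and a start annotated a few bases away from the true one gives no match. RPL3 shows a shorter run of 4 bases. Among members that rose at 1000 nM, 7 of 9 with an entry had the motif, and among those not called there 26 of 36 did. Among the 3 members that fell at 500 nM it was present in 1, RPS16, while 30 of 39 members not called at 500 nM had it. These shares describe the annotated letters and were not tested against the responses.

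The members gave some of the highest signals on the array. Mean intensities ran from 7189 for RPL11 to 15327 for RPL32, with RPL38 near the middle at 11063, and the highest intensity in the table was 20095. All 51 lay in the brightest 1% of probe sets. Signals of different probe sets depend on their own probes, so this order is not an order of mRNA amounts. Whether signal this high rises in proportion to the RNA was not tested. By the array maker's naming, probe sets ending in _s_at or _x_at can share probes with other transcripts, and 26 and 16 of the 51 representatives end so. Ribosomal protein genes have many processed pseudogenes of near-identical sequence, so a signal may include those copies.

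As deposited, the 29 arrays were alike in level, with means after trimming 2% of values at each end between 299 and 309. How the values were normalized was not stated, so this likeness says nothing of the arrays before processing. Replicates of a group correlated at 0.980 to 0.998. Of the bronchial epithelial markers 8 of 9 matched were above the minimum, with CDH1, EPCAM, KRT18 and KRT19 among them and KRT14 below it. No leukocyte marker of 4 and no endothelial marker of 4 reached the minimum, and of 5 fibroblast markers COL1A1 did. Control probe sets at the 3′ and the 5′ end of actin and GAPDH show how far the cDNA reached. The mean of the 2 genes' log2 ratios (3′ over 5′), called the 3′ to 5′ ratio here, differed between groups. It was 1.17 ± 0.04 (SD, n = 3) in DMSO, 0.93 ± 0.08 at 500 nM and 0.84 ± 0.02 at 1000 nM. At 0.1 to 5 nM group means lay above DMSO, between 1.22 and 1.35, and at 10 to 100 nM between 1.15 and 1.16. The fall at the high doses was in actin alone, with 2.20 in DMSO, 1.67 at 500 nM and 1.51 at 1000 nM. GAPDH did not fall, with 0.14, 0.20 and 0.17 in these groups. In bulk RNA a change in the amount per cell cannot be told apart from a change relative to all other RNA.

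The brightest probe sets of the ribosomal protein genes stayed close to their DMSO signal at every dose, while dimmer probe sets of some of these genes, described further on, did not. At 1000 nM the 51 log2 changes against DMSO ran from -0.05 to 0.18 with a median of 0.02, and 38 were above 0. The largest was a 1.13-fold difference. At 500 nM they ran from -0.13 to 0.10 with a median of -0.0034. Over members the SD of the changes at 1000 nM was 0.053, against 0.558 over all 27307 tested probe sets and 0.206 over 160 probe sets as bright as the members that name no ribosomal protein. Only 7 of 51 members moved by more than 0.1 in either direction at 1000 nM, while 79.7% of all tested probe sets did. The median SE of a change was 0.025 over members and 0.099 over all tested probe sets, so this cut is not equally strict for both. The share of the bright probe sets past it is not given here. Replicate spread was small too, with a median SD within groups of 0.029 on the log2 scale against 0.120 over all tested probe sets and 0.037 over the bright ones. No 95% interval of a member at 1000 nM reached beyond a log2 change of 0.32 in either direction.

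By the limma test over all tested probe sets, at a Benjamini-Hochberg adjusted p of 0.05, 10 of 51 members rose and 0 fell at 1000 nM. Of all tested probe sets 59.9% were called at that dose (28.9% higher and 31.0% lower), and of the 160 bright ones 47.5%, so the members' count was below both shares. At 500 nM 4 members rose and 3 fell, against 45.4% of all (23.1% higher and 22.3% lower) and 35% of bright probe sets. At 100, 50, 10, 5, 1, 0.5 and 0.1 nM no member passed the limma test. By the adjusted p, 2.9%, 0.264%, 0.242%, 1.11%, 0.78%, 0.0439% and 0.597% of all tested probe sets were called in that order. The unadjusted p was under 0.05 for 4, 6, 3, 12, 9, 0 and 15 members. The share of all tested probe sets under that looser cut is not given here, so these counts have no array share beside them. All these comparisons share the 3 DMSO arrays. Without DMSO replicate 1, 2 members passed at 0.1 nM and 1 at 5 nM.

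**Figure D1:**
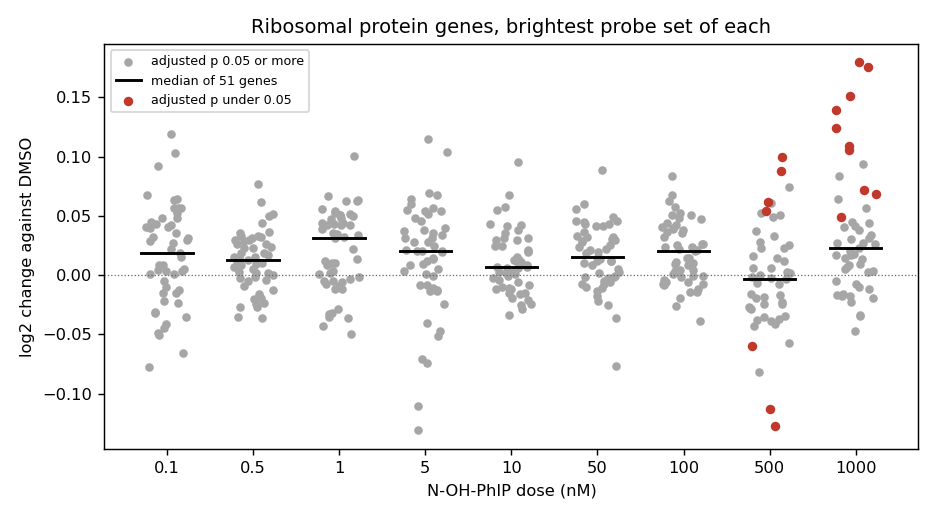
Log2 change against DMSO (vertical axis) at each of the 9 N-OH-PhIP doses (horizontal axis, nM) for the brightest probe set of the 51 tested ribosomal protein genes, 1 point per gene, with the median as a bar. Red points passed at adjusted p under 0.05, 10 of them at 1000 nM and 7 at 500 nM, and the medians of the 9 doses lie between -0.0034 and 0.031.

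The largest changes at 1000 nM were those of RPS15 and RPS9, proteins of the small subunit, which reads the mRNA. RPS9, a core protein of the small subunit, had intensities of 7119, 7069 and 7492 in DMSO, 6993, 7324 and 6817 at 500 nM, and 8436, 8040 and 8014 at 1000 nM. Its 3 arrays at 1000 nM lay above all arrays of DMSO and of 500 nM, a log2 change against DMSO of 0.18 ± 0.03 (SE, adjusted p = 4.3e-05). The direct difference between 1000 and 500 nM was 0.21 ± 0.03 (adjusted p = 9.1e-06).

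RPS15, a protein of the small subunit head, had 9320, 9904 and 9913 in DMSO, 10680, 10393 and 8273 at 500 nM, and 11125, 10989 and 10879 at 1000 nM. The 1000 nM arrays lay above all others here too, but this probe set had the largest spread within groups of any member, an SD of 0.096, and its rise of 0.18 ± 0.07 had an adjusted p of 0.028. The call was lost without DMSO replicate 1, 1000 nM replicate 1 or 1000 nM replicate 2. RPS21, another small subunit protein, had 7491, 7577 and 7797 in DMSO and 8532, 8491 and 8172 at 1000 nM, with no overlap and a log2 change of 0.14 ± 0.04 (adjusted p = 0.0015). In total 3 of 20 small subunit members rose at 1000 nM, with a median over the 20 of 0.02.

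Of the large subunit, which joins amino acids, 7 of 31 tested members rose at 1000 nM, with a median of 0.03. RPL36 had 7985, 7308 and 8228 in DMSO and 8882, 8850 and 8376 at 1000 nM, with no overlap and a change of 0.15 ± 0.03 (adjusted p = 0.00055). RPL34 had 9790, 9931 and 9660 in DMSO, 9992, 10161 and 9568 at 500 nM, and 10594, 10447 and 10992 at 1000 nM. Its arrays at 1000 nM overlapped with neither other group, and the change was 0.12 ± 0.02 (adjusted p = 6.9e-05). In 16 members every 1000 nM array lay above every DMSO array and in 0 below, where 31.8% and 33.3% of all tested probe sets did so. At 500 nM 6 lay above and 2 below, where 22.2% and 21.4% of all did. Smaller rises at 1000 nM of 0.11 for RPL7, 0.11 for RPL11, 0.07 for RPL12, 0.07 for RPLP2 and 0.05 for RPL19 also passed.

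The rises of RPS9, RPL36, RPL34 and RPL7 passed under all 15 alternatives tried for them. Those of RPL12 and RPL19 were lost under 9 and 10 of 15, among them the fits without DMSO replicate 1 or 2 or 1000 nM replicate 1 or 2. RPLP2 and RPLP1 form the stalk that recruits elongation factors, and RPLP1 had a change of 0.06 ± 0.03 that did not pass (adjusted p = 0.083).

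RPL7, RPL11 and RPL19 rose at both high doses, and RPL22 was the other member that rose at 500 nM. RPL19 changed by 0.05 ± 0.02 at each (adjusted p = 0.034 at 500 nM and 0.040 at 1000 nM), calls that were lost under 10 of 16 and 10 of 15 alternatives, among them the fits without DMSO replicate 1 or 2 or without replicate 1 or 2 of the dose. RPL7 had 10149, 10381 and 10186 in DMSO, 10836, 11132 and 10950 at 500 nM, and 10988, 10876 and 11264 at 1000 nM. Both dose groups lay wholly above DMSO, by 0.10 ± 0.02 (adjusted p = 0.00015) and 0.11 ± 0.02 (adjusted p = 2.8e-05), and the difference between them was 0.01 ± 0.02 (adjusted p = 0.74).

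RPL11, the MDM2-binding protein, had 7190, 6468 and 7131 in DMSO, 7306, 7369 and 7394 at 500 nM, and 7599, 7483 and 7274 at 1000 nM. The dose arrays lay above the DMSO arrays, of which replicate 2 was the lowest of all 29, and the changes were 0.09 ± 0.03 (adjusted p = 0.026) and 0.11 ± 0.03 (adjusted p = 0.0055). Without DMSO replicate 2 neither call held, and the one at 500 nM was also lost without 500 nM replicate 2 or 3. Of 6 tested genes mutated in Diamond-Blackfan anaemia, an inherited red-cell failure, RPL11 was the 1 that rose at these doses and 0 fell. RPS19, the gene most often mutated in that disease, changed by 0.03 ± 0.03 at 1000 nM on its brightest probe set (adjusted p = 0.38).

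At 500 nM 3 members fell. RPL10A, a protein of the L1 stalk, had 12414, 13033 and 12843 in DMSO, 11673, 12031 and 11354 at 500 nM, and 12357, 12587 and 12734 at 1000 nM. The 500 nM arrays lay below all DMSO arrays, by 0.13 ± 0.03 (adjusted p = 0.00025), while the 1000 nM arrays lay within or just below the DMSO range.

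RPL3, a protein near the peptidyl transferase centre, had 10069, 10283 and 10593 in DMSO, 9310, 10126 and 9201 at 500 nM, and 10733, 10128 and 10401 at 1000 nM. It fell by 0.11 ± 0.03 at 500 nM (adjusted p = 0.0037), with replicate 2 inside the DMSO range. RPS16 fell by 0.06 ± 0.02 (adjusted p = 0.040), a call lost without DMSO replicate 1 or 3 or 500 nM replicate 3. With the 3′ to 5′ ratio as a covariate, a ratio that itself differed between DMSO and 500 nM, no member fell at 500 nM and 2 rose.

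**Figure D2:**
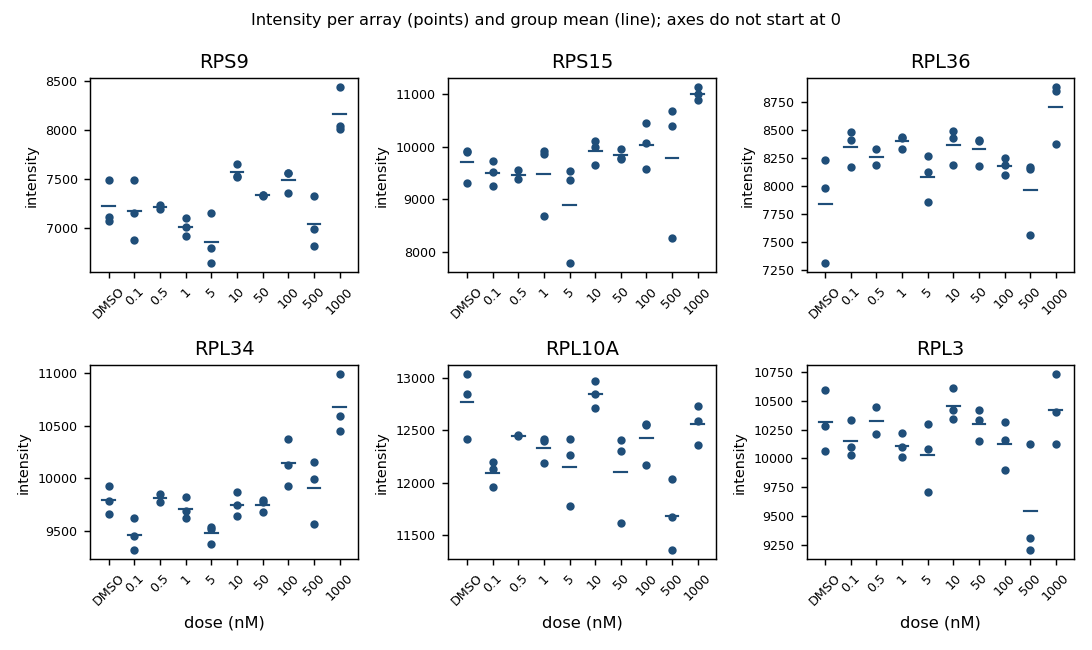
Intensity (vertical axes, linear and not from 0) of 6 ribosomal protein genes in each array, by dose (horizontal axes, nM), with points for arrays and lines for group means. At 1000 nM the RPS9, RPS15, RPL36 and RPL34 arrays lie above all DMSO arrays, and the lowest group of RPL10A and RPL3 is 500 nM.

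The 2 highest doses also differed from each other. Between 1000 and 500 nM, a comparison free of the DMSO arrays, 15 of 51 members were higher at 1000 nM and 0 lower. Of all tested probe sets 43.3% were called there (17.7% higher and 25.6% lower), and of the bright ones 25.6%. Under quantile normalization 7 were higher and 2 lower, and without 500 nM replicate 3 the count was 9. Beside RPS9, the rises of RPL3 by 0.13 ± 0.03 (adjusted p = 0.0014), RPL36 by 0.13 ± 0.03 (adjusted p = 0.0042), RPL34 by 0.11 ± 0.02 (adjusted p = 0.00065), RPL10A by 0.10 ± 0.03 (adjusted p = 0.0020) and RPS28 by 0.18 ± 0.05 (adjusted p = 0.0043) passed under all 15 alternatives. In 17 members every 1000 nM array lay above every 500 nM array and in 0 below, where 17.8% and 23.6% of all tested probe sets did so. Of the 10 groups, 500 nM had the lowest mean for 20 of 51 members and 1000 nM the highest for 18. The matching shares over all tested probe sets are not given here, so these counts cannot be called particular to the members.

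Against 100 nM, 500 nM had 1 member higher and 6 lower (35.7% of all tested probe sets called, 17.8% higher and 17.9% lower). That count of 7 was 0 without 500 nM replicate 3, 1 without 100 nM replicate 1 and 3 without 100 nM replicate 2. The doses of 10 to 100 nM exceeded those of 0.1 to 5 nM in 2 members, RPS9 by 0.08 ± 0.02 (adjusted p = 0.0050) and RPL7 by 0.06 ± 0.01 (adjusted p = 0.0015), with 10.4% of all called (6.63% higher and 3.78% lower).

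Over the 26 treated arrays, 9 members rose and 9 fell with dose, where 59.5% of all tested probe sets had a trend (30.6% up and 28.9% down). The steepest rises were those of RPL7 and RPS15, each 0.04 log2 per 10-fold dose (adjusted p = 2.2e-06 and 0.022), and RPL34 at 0.03 (adjusted p = 0.00025). RPS3, whose slope was 0.02 (adjusted p = 0.00030), and RPS14, whose slope was 0.02 (adjusted p = 0.0061), passed here though at neither 500 nor 1000 nM. The steepest fall was that of RPL27 at -0.02 (adjusted p = 0.0030), and RPL9, RPS18, RPS12 and RPS6, the substrate of S6 kinases, fell by less. These slopes depend on scaling, since median centring gave 4 rises and 27 falls. The 3′ to 5′ covariate left 0. That ratio was itself lowest at 500 and 1000 nM, so such a fit cannot separate it from dose. Over all 10 groups, 15 members differed by the moderated F test (68.3% of all tested probe sets). The range of group means was under 0.1 in 35 members, from 0.033 for RPL41 to 0.311 for RPS15.

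Some dimmer probe sets of the same genes responded more than the brightest at 1000 nM. In 29 genes 49 further probe sets were tested, and their response was compared with that of the brightest in the same arrays. At 1000 nM 19 of 49 pairs differed, and in all 19 the dimmer probe set responded higher. Of all 10973 such pairs on the array 42.2% differed, 29.5% with the dimmer probe set higher and 12.6% with it lower, so the members' count was near the array's share. The pairs that differed lay at low signal, in level classes drawn after the values were seen and not tested. Among 24 further probe sets at a mean intensity of 5000 or more, 0 pairs differed, and among 17 from 100 to 5000 and 8 under 100, 12 and 7 did. Their median log2 changes were 0.03, 0.63 and 0.58. In the middle class 14 of 17 rose and 0 fell, while over all tested probe sets of that class 29.7% rose and 36% fell.

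**Figure D3:**
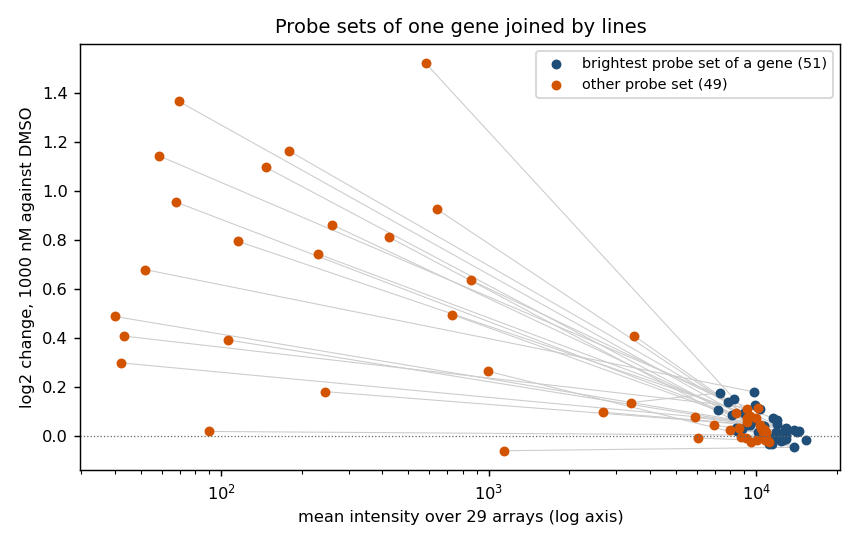
Log2 change at 1000 nM against DMSO (vertical axis) by mean intensity over 29 arrays (horizontal log axis) for all 100 tested probe sets of ribosomal protein genes, with probe sets of one gene joined by lines. The 51 brightest sit between -0.05 and 0.18, and further probe sets below an intensity of 5000 reach 1.52.

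RPS19 probe set 242451_x_at had 421, 482 and 462 in DMSO, 953, 712 and 694 at 500 nM, and 1120, 1616 and 1308 at 1000 nM. Its 3 groups did not overlap, and it rose by 0.76 ± 0.13 and 1.52 ± 0.13, the latter a 2.87-fold difference. The brightest RPS19 probe set, 202649_x_at, had 10536, 9999 and 10386 in DMSO and 10732, 10704 and 10068 at 1000 nM, with overlapping groups, and the pair differed in response at 1000 nM (adjusted p = 6.5e-09).

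RPS29 probe set 238824_at had 59.5, 56.9 and 60.9 in DMSO, 53.6, 44.9 and 60.0 at 500 nM, and 126, 216 and 204 at 1000 nM. It rose by 1.37 ± 0.18 at 1000 nM, where the brightest RPS29 probe set changed by 0.04 (adjusted p of the difference 6.3e-06). From 500 to 1000 nM the log2 change of the brightest minus that of 238824_at was -1.44 ± 0.19 (adjusted p = 7.5e-06). Near the level minimum the offset of 16 shrinks such changes. RPS28 208903_at had 139, 142 and 145 in DMSO and 330, 349 and 336 at 1000 nM, and RPLP2 217670_at had 45.7, 55.8 and 49.1 against 118, 142 and 130. Neither pair of groups overlapped, and the rises were 1.16 ± 0.09 and 1.14 ± 0.13.

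At 500 nM 14 of 49 pairs differed (24.3% of all pairs, 14.8% with the dimmer higher and 9.46% with it lower), 8 with the dimmer probe set higher and 6 with it lower, a split that was absent at 1000 nM. RPS15A 235309_at had 712, 744 and 682 in DMSO, 447, 548 and 573 at 500 nM, and 1155, 887 and 1005 at 1000 nM. It fell by 0.44 ± 0.09 at 500 nM and rose by 0.50 ± 0.09 at 1000 nM, with no overlap of the 3 groups. The other RPS15A probe set, 229882_at, rose at both doses, by 0.45 ± 0.13 and 0.95 ± 0.13, and the brightest changed by 0.01 at both.

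RPL37 224763_at, picked after its values were seen, had 1014, 913 and 1016 in DMSO, 688, 878 and 697 at 500 nM, and 1110, 1293 and 1143 at 1000 nM. It fell by 0.38 ± 0.07 and rose by 0.26 ± 0.07. RPL37 224766_at had 135, 148 and 133, then 114, 99.9 and 110, then 234, 358 and 370, and changed by -0.32 ± 0.13 and 1.10 ± 0.13. The remaining RPL37 probe set, 224767_at, fell by 0.35 ± 0.06 at 500 nM and had a change of -0.06 ± 0.06 at 1000 nM that did not pass (adjusted p = 0.40). Between 1000 and 500 nM 19 of the 49 pairs differed, all with the dimmer probe set higher (26.4% of all pairs, 19% with the dimmer higher and 7.39% with it lower).

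**Figure D4:**
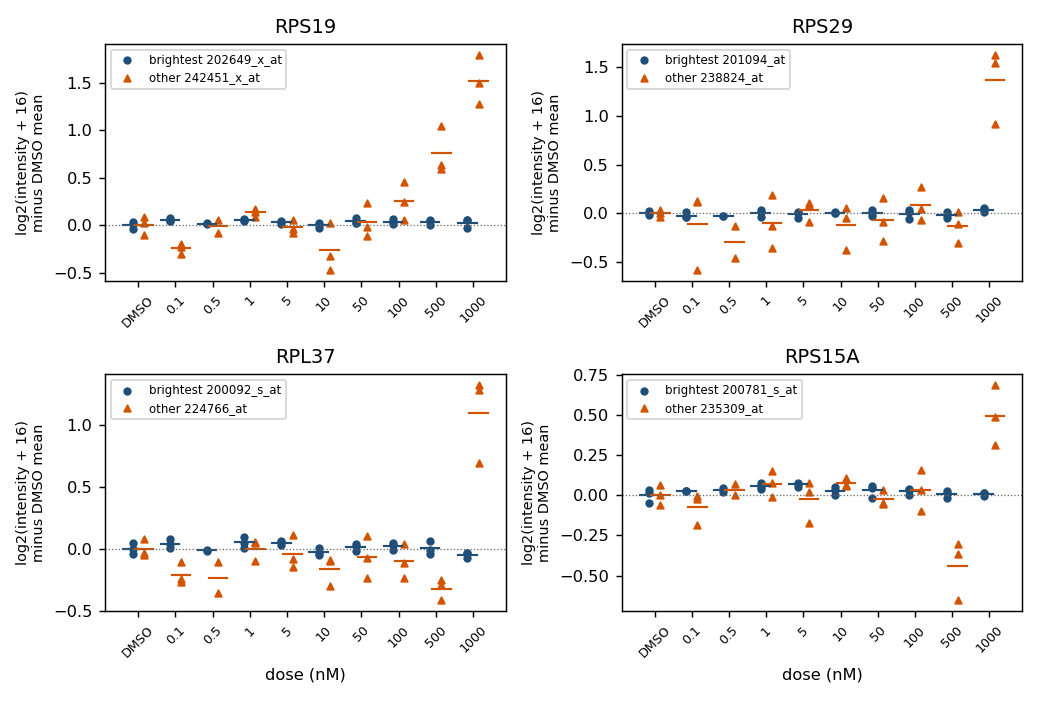
Log2(intensity + 16) minus the DMSO mean (vertical axes) by dose (horizontal axes, nM) for the brightest and 1 further probe set of RPS19, RPS29, RPL37 and RPS15A, with points for arrays and lines for group means. The brightest probe sets stay near 0, while the further ones reach group means of 1.52, 1.37, 1.10 and 0.50 at 1000 nM.

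The group means of the 3′ to 5′ ratio, 0.93 (500 nM) and 0.84 (1000 nM), were both lower than the vehicle mean of 1.17. The pairs that differed went both ways at 500 nM, 8 with the dimmer probe set higher and 6 with it lower. At 1000 nM all 19 had the dimmer probe set higher. Whether the ratio and these differences moved together was not tested. With the ratio as a covariate 10 of 49 pairs differed at 1000 nM, all with the dimmer probe set higher, and 3 at 500 nM. Probe positions along the transcripts are not used here, so the part of that ratio in single probe sets was not tested. The 63 tested probe sets that list a ribosomal protein symbol together with others, mostly small nucleolar RNA genes hosted in its introns, showed 31 rises and 1 fall at 1000 nM with a median of 0.07, where 28.9% and 31.0% of all tested probe sets rose and fell. At 500 nM they showed 14 rises and 6 falls, where the shares of all were 23.1% and 22.3%.

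Several related genes outside the name rule were examined as well. FAU, whose product is a ubiquitin-like protein fused to the small subunit protein eS30, rose by 0.16 ± 0.03 at 1000 nM (adjusted p = 0.00011), from 7431, 7317 and 7935 to 8495, 8628 and 8266 with no overlap. Paralogs are genes that resemble a ribosomal protein gene and can replace or accompany it. Of 8 tested, 3 rose and 3 fell at 1000 nM, where 28.9% and 31.0% of all tested probe sets did. Their median change was 0.04.

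RPL22L1, a paralog of RPL22, had 2285, 2250 and 2440 in DMSO, 1613, 1449 and 1496 at 100 nM, 1005, 1157 and 884 at 500 nM, and 1367, 1293 and 1408 at 1000 nM. No array of these doses reached the DMSO range, and 500 nM lay below 1000 nM in every array. The changes were -0.35 ± 0.08 at 50 nM (adjusted p = 0.043), -0.61 ± 0.08 at 100 nM (adjusted p = 1.3e-05), -1.19 ± 0.08 at 500 nM (adjusted p = 1.7e-12) and -0.77 ± 0.08 at 1000 nM (adjusted p = 2.5e-09). RPL22 itself changed by 0.06 ± 0.02 at 500 nM on its brightest probe set (adjusted p = 0.014, a call lost without DMSO replicate 1 or 500 nM replicate 2) and by 0.04 ± 0.02 at 1000 nM (adjusted p = 0.075). Of its 4 further tested probe sets 2 rose at 500 nM with the brightest, by 0.06 and 0.08, 1 changed by -0.06 and did not pass (adjusted p = 0.11), and 221726_at fell by 0.20.

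RPS27L, a paralog of RPS27 and a known p53 target, had 5356, 5284 and 5742 in DMSO, 7381, 7467 and 6824 at 100 nM, 8373, 8011 and 7901 at 500 nM, and 6391, 6923 and 6612 at 1000 nM. All arrays of these doses exceeded DMSO, with 500 nM highest. It rose by 0.29 ± 0.04 at 50 nM (adjusted p = 0.00086), 0.40 ± 0.04 at 100 nM (adjusted p = 5.3e-07), 0.57 ± 0.04 at 500 nM (adjusted p = 1.5e-11) and 0.28 ± 0.04 at 1000 nM (adjusted p = 1.3e-06). It also passed at 5 nM (0.19 ± 0.04, adjusted p = 0.020) and 1 nM (0.20 ± 0.04, adjusted p = 0.015) but not at 10 nM (0.10 ± 0.04, adjusted p = 0.31). At 0.5 nM (0.12 ± 0.05, adjusted p = 0.32) and 0.1 nM (0.14 ± 0.04, adjusted p = 0.11) it did not pass either. Calls of paralogs were not put through the alternative fits, and all share the DMSO arrays. RPS27 changed by -0.04 ± 0.03 at 500 nM (adjusted p = 0.37) and 0.03 ± 0.03 at 1000 nM (adjusted p = 0.39). Both paralogs were nearer DMSO at 1000 than at 500 nM, RPS27L by 0.29 ± 0.04 (adjusted p = 3.5e-06) and RPL22L1 by 0.42 ± 0.08 (adjusted p = 7.8e-05).

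**Figure D5:**
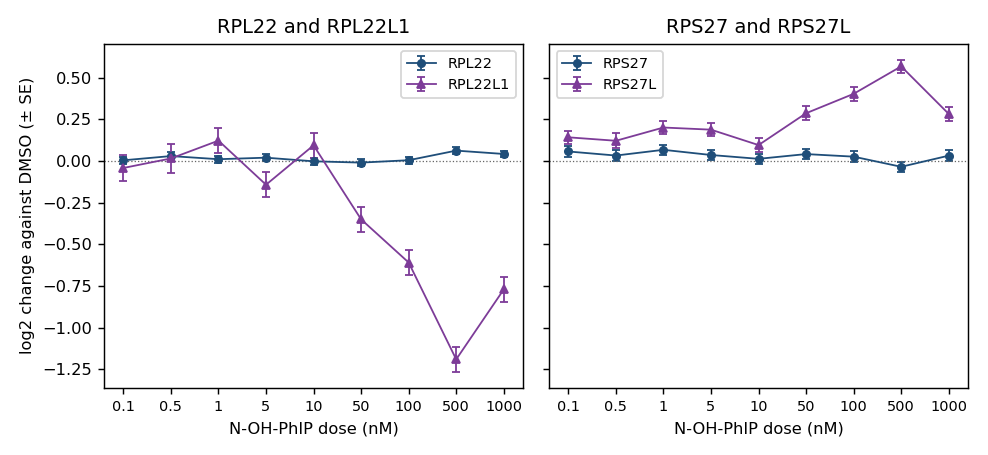
Log2 change against DMSO with its SE (vertical axis) by dose (horizontal axis, nM) for RPL22 and RPL22L1 and for RPS27 and RPS27L. The paralogs reach -1.19 and 0.57 at 500 nM, where RPL22 and RPS27 lie at 0.06 and -0.04.

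RPL36AL rose by 0.25 ± 0.04 at 1000 nM (adjusted p = 2.6e-05) and RPL10L by 0.33 ± 0.10 (adjusted p = 0.0051), and both can share signal with their near-identical parent genes. RPL10L lay near the level minimum of 37.4, with mean intensities of 53.5 in DMSO and 70.9 at 1000 nM. RPL39L fell by 0.36 ± 0.07 (adjusted p = 5.4e-05) and RPL26L1 by 0.10 ± 0.04 (adjusted p = 0.024).

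Genes that make ribosomes were called about as often as probe sets in general at 1000 nM, of which 28.9% rose and 31.0% fell, and the same shares stand behind the lists that follow. Of 22 tested ribosome biogenesis factors 11 rose and 4 fell at 1000 nM, with a median of 0.17. A larger part of them rose and a smaller part fell than over all tested probe sets, a lean that was not tested. At 500 nM 7 rose and 1 fell, where 23.1% and 22.3% of all did. At 1000 nM NOP2, a methyltransferase of ribosomal RNA, rose by 0.38 ± 0.08, BRIX1, a large subunit assembly factor, by 0.35 ± 0.08, and FBL, the fibrillarin methyltransferase, by 0.33 ± 0.05. EFL1, which releases an anti-association factor from late large subunits, fell by 0.89 ± 0.09, and RIOK1, a kinase of small subunit maturation, by 0.51 ± 0.07. Of 15 RNA polymerase I genes 4 rose and 5 fell at 1000 nM, with POLR1C up by 0.79 ± 0.08 and TAF1B down by 0.91 ± 0.09.

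A list of 22 genes, drawn up for control of ribosomal protein mRNA translation and mTOR signalling, also held MYC and MDM2. Of the 22, 10 rose and 7 fell at 1000 nM, with a median of 0.08. The sestrins SESN1 and SESN3, which inhibit mTOR complex 1, rose by 1.35 ± 0.09 and 0.97 ± 0.08, and EIF4EBP1, a translation repressor under mTOR, fell by 0.67 ± 0.10. RPTOR, the defining subunit of mTOR complex 1, fell by 0.65 ± 0.12. Translation factors of the TOP class stayed nearer to the ribosomal protein genes, with 5 rises and 1 fall among 16 and a median of 0.01, of which the elongation factor EEF2 rose most, by 0.22 ± 0.03.

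Mitochondrial ribosomal protein genes, which are encoded in the nucleus but serve the separate ribosome of mitochondria, were called about as often as probe sets in general. Of 75, 14 rose and 34 fell at 1000 nM, with a median of -0.14 and a range from -0.92 for MRPS18A to 0.73 for MRPL14. A larger part of them fell and a smaller part rose than the 31.0% and 28.9% of all tested probe sets, a lean that was not tested. At 500 nM 14 rose and 20 fell, where 23.1% and 22.3% of all did. The spread of these other lists was not tested against that of the cytosolic members.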

How the data were processed

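Each deposited value is an intensity on a linear scale, 1 per probe set and array, from GCOS per the submitters' processing notes. How the authors normalized the deposited intensities was not stated in the labels used. Per the labels' protocols, 40 ng of RNA was amplified and biotin-labelled. Groups follow the sample titles, whose lowest dose is 0.1 nM, though the design text names 0.5 nM as the lowest.

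Values were taken as log2(intensity + 16), and 27307 probe sets at or above the median level were tested with limma 3.58.1 in R 4.3.3. The model had a mean for each of 10 groups, 19 residual degrees of freedom, empirical Bayes moderation that follows the mean level, two-sided tests and Benjamini-Hochberg adjustment. Probe sets of one gene were compared by the difference within arrays over 10973 pairs, without the trend. Genes named were the called members, fixed members of interest and up to 4 called genes of each other list. Members and lists were chosen with earlier results of these data known. The code was tested on simulated data. Figures were drawn with matplotlib 3.10.9. The number of arrays limits the precision, and detection calls were not used.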

Additional observations from a re-analysis of the deposited data

How the results depend on the processing

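Counts of called members kept within 1.5 times of those reported except as follows. Median centring gave 6 at 1000 nM, 1 at 100 nM, 1 at 5 nM, 31 trends, 27 in the F test and 9 between 1000 and 500 nM. Without a mean-variance trend these were 6 at 1000 nM, 3 at 500 nM, 7 trends, 3 in the F test, 6 between 1000 and 500 nM and 0 between 500 and 100 nM. Quantile normalization gave 4 at 500 nM, 1 at 5 nM and 9 between 1000 and 500 nM. The 3′ to 5′ covariate gave 2 at 500 nM, 0 trends, 8 in the F test, 0 between 500 and 100 nM, and 10 and 3 probe set pairs at 1000 and 500 nM. Representing genes by probe sets ending in plain _at gave 18 at 1000 nM, 12 at 500 nM and 24 in the F test. A fit of only the dose and DMSO gave 2 at 500 nM, and no level filter gave 1 between 500 and 100 nM. Without 5 nM replicate 3 and 500 nM replicate 3, chosen after seeing the data, 9 differed between 1000 and 500 nM and 1 between 500 and 100 nM. The causes were not tested. Reversed were the RPL32 trend under quantile normalization (0.0026), the RPS6 trend with the covariate (0.0084), and, with the plain _at probe set, RPL22 at 500 nM (-0.20) and between 500 and 100 nM (-0.17). Leaving out 1 array gave 7 to 11 members at 1000 nM, 6 to 7 at 500 nM, 0 at 100, 50, 10, 1 and 0.5 nM, 0 to 1 at 5 nM, 0 to 2 at 0.1 nM, 12 to 20 trends, 7 (without 1000 nM replicate 1) to 20 in the F test, 9 to 16 between 1000 and 500 nM, 0 to 6 between 500 and 100 nM, and 17 to 19 and 10 to 15 pairs. The median change over members stayed between -0.02 and 0.06 under all alternatives tried. No pairing of arrays by replicate number was seen. Of 126 same-numbered pairs 37 correlated above 0.1, with a median of 0.01 against -0.02 for other numbers. Of 29 arrays 10 were most like an array of their own number. Such a check cannot show that same-numbered cultures were handled apart. The replicate block left 10 at 1000 nM and 7 at 500 nM.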
